A study of Mus musculus with 20 samples.

Results

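The genes described are the mouse channel genes of the voltage-gated and potassium families on a short-oligonucleotide array. They were chosen by symbol alone: a probe set (the array's unit of measurement, a group of short probes to 1 transcript) entered if its single annotated symbol began with Kcn, or with Cacna, Cacnb, Cacng, Hcn or Scn and a digit. Of 12422 probe sets without the platform's controls, 75 matched, from 62 of the 8251 genes that had a probe set with a single symbol. Each gene is represented by the probe set with the highest mean over the 20 arrays, and 13 genes had more than 1. By class they are 6 sodium channel alpha genes (the pore of the sodium channel), 7 calcium channel pore genes, 2 alpha2delta, 1 beta and 2 gamma genes of calcium channels, 2 pacemaker genes, 16 voltage-gated potassium pore genes, 6 potassium channel accessory genes, 4 calcium- or sodium-activated potassium pores, 11 inward rectifiers and 5 two-pore-domain potassium channels.

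Voltage-gated sodium and calcium channels open when a membrane depolarizes and carry the upstroke of the action potential or the calcium entry that triggers contraction, secretion and transmitter release. Potassium channels return the membrane to rest or hold it there, and their subtypes set how fast a cell repolarizes. Nerve, heart and skeletal muscle use different members of each family, and ATP-sensitive potassium channels, built from a Kir6 pore and a sulphonylurea receptor, couple the membrane to the energy state of the cell.

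The series concerns sleep apnea and glucose metabolism. A tissue panel of 12 arrays held brain, heart, lung and skeletal muscle of C57BL-6J mice aged 20 weeks, with 1 array per tissue for control (neither exposure), sleep fragmentation and hypoxia. A further 8 arrays held subcutaneous adipose tissue from mice aged 12 weeks, in 4 groups of 2 arrays: Con or Glucose, each with intermittent hypoxia or without. The labels name the strains C57BL-6J and C57BL-6J-Lep or LepOb (mice with a mutated leptin gene) for the adipose arrays together, and do not assign a strain to an array or define Con and Glucose. The hypoxic adipose mice had oxygen lowered from 20.9% to 5% over 30 seconds and returned to 20% over 30 seconds, 16 hours daily for 5 days, and the others had room air. For the panel the labels give no dose of hypoxia or fragmentation. They do not say that arrays came from separate animals, so each p-value measures the spread between arrays only.

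Levels are log2 intensities. The panel was quantile normalized after an offset of 97.7 was added to each value, which understates the folds of low genes. On the adipose arrays the offset itself replaced every smaller value, and its log2, 6.61, is called the floor. The 2 sets of arrays were scaled apart, and levels are not compared between them. The panel fit tested 40 of the 62 genes and the adipose fit 24, those above a filter on low values. A gene that passed the panel filter only through its highest tissue had to differ between tissues, so counts over the tested genes are set beside the share of all tested probe sets called by the same rule.

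Arrays matched their tissue labels in most markers. All 7 measured neuron markers and all 7 glial markers were highest in brain, 7 of 9 cardiac markers in heart, 7 of 10 skeletal muscle markers in muscle and 3 of 5 lung epithelial markers in lung. The exceptions were Actc1 and Myl2, then Acta1, Pvalb and Tnnc2, then Scgb1a1 and Sftpc. The trimmed mean intensity was between 792 and 799 on 19 arrays and 2670 on the brain hypoxia array before normalization. Signs of other tissue were present: Myl7 and Myh6, genes of heart muscle, were at 12.23 to 12.65 and 11.06 to 11.43 on the lung arrays, and the mean of the skeletal muscle markers was 10.03 on the brain control array against 8.37 and 9.08 on the other brain arrays, and 10.41 on the lung hypoxia array against 8.01 and 8.47. Gh, a pituitary hormone gene, was at 13.60 on the brain fragmentation array against 10.72 and 11.27 on the control and hypoxia brain arrays. Scgb1a1 was at 13.62 on the brain control array against 9.25 and 9.01 on the fragmentation and hypoxia brain arrays. The part of such tissue in the results was not tested. In whole tissue, fewer cells of a type and less RNA per cell cannot be told apart.

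The start regions of 6 genes are shown because these genes had the highest differences in their tissue among genes with 1 start in the RefSeq promoter table. The table (build GRCm38.p6, 250 bases before to 50 after a start) held 60 windows for 47 of the 62 genes. Capitals mark matches, on either strand, to TATAAA (the TATA box), CAGCTG (an E-box core that myogenic factors bind), GGGCGG (the GC box) or TTCAGCACC (the first part of the REST site, at which the repressor REST holds neuronal genes off outside neurons).
Scn1a, high in brain, chr2:66440788-66441087, minus strand: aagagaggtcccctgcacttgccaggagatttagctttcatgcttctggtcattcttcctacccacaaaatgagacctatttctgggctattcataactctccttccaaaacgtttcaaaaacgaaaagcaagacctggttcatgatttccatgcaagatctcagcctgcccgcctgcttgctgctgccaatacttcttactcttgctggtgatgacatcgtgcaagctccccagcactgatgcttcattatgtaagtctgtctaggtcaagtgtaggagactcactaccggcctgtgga
Cacna2d3, high in brain, chr14:29721815-29722114, minus strand: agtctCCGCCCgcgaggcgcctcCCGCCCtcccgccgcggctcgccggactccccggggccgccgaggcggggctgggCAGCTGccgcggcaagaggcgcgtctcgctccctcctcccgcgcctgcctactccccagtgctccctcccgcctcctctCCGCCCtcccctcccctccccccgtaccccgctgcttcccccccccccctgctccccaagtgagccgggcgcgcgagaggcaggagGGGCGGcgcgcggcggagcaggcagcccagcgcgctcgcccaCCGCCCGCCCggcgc
Kcnj8, high in heart, chr6:142571565-142571864, minus strand: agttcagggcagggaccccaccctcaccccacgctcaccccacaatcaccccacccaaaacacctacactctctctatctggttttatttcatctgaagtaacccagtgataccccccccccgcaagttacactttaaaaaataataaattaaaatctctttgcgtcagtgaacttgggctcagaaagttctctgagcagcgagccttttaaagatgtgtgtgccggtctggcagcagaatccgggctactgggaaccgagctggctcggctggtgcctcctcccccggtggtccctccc
Scn7a, high in lung, chr2:66784861-66785160, minus strand: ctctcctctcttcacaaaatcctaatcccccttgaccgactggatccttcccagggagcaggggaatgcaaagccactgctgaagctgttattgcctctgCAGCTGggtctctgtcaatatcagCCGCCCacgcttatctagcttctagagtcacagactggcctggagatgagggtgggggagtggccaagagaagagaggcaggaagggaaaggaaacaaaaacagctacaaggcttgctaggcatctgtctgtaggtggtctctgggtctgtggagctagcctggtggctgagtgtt
Cacna1s, high in muscle, chr1:136052561-136052860, plus strand: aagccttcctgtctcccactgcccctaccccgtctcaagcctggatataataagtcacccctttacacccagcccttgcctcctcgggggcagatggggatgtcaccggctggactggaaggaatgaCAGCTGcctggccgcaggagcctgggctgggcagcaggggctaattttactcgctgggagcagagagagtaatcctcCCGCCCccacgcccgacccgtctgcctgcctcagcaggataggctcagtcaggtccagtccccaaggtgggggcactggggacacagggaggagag
Kcna7, high in muscle, chr7:45405710-45406009, plus strand: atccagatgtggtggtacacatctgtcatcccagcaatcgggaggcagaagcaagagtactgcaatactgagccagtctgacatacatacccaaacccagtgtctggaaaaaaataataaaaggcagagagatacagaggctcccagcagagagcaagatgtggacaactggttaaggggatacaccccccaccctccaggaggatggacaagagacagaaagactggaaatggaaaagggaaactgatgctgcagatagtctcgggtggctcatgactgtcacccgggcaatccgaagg

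Both muscle genes and both brain genes differed from each other in these windows. The Cacna1s window held 1 CAGCTG and 1 GC box, read on the opposite strand as CCGCCC, and the Kcna7 window held none of the 4 motifs. The Cacna2d3 window held 1 CAGCTG and 6 GC boxes, the last pair overlapping, at a GC content of 81.3%, and the Scn1a window held no match at 47.3%. The mean GC content over all 32851 windows of the table was 53.8%. CAGCTG stood in 16.3% of all windows and in 21 of the 60 channel windows, GGGCGG in 35.7% and 30, TATAAA in 13.6% and 3, and TTCAGCACC in 0.371% and none. A match is a description of the letters, and no binding was measured.

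Channel genes, each by its highest probe set, varied more between the 4 tissues than probe sets at large. The latter include the lower probe sets of genes with several, so the sides of these comparisons were not chosen alike. The range of the tissue means had a median of 1.59 log2 over the 62 genes against 0.94 over all probe sets, and 25 genes (40.3%) spanned 2 log2 or more against 14.9% of all. Their median standard deviation (SD) within a tissue, 0.36 against 0.28, was also larger. Brain was the highest tissue for 25 of the 62 (40.3%), against 22.3% of all probe sets, heart for 15 (24.2%, against 20.4%), muscle for 15 (24.2%, against 29.8%) and lung for 7 (11.3%, against 27.5%). All 3 arrays of the highest tissue lay above all 9 others for 15 of the brain genes (24.2% of the 62, against 9.57% of all probe sets), 8 of the heart genes (12.9%, against 4.33%), 7 of the muscle genes (11.3%, against 6.91%) and 2 of the lung genes (3.23%, against 12.2%). The 22 genes that were not tested had single values between 6.78 and 9.61 and a median range of 0.89 log2.

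**Figure D1:**
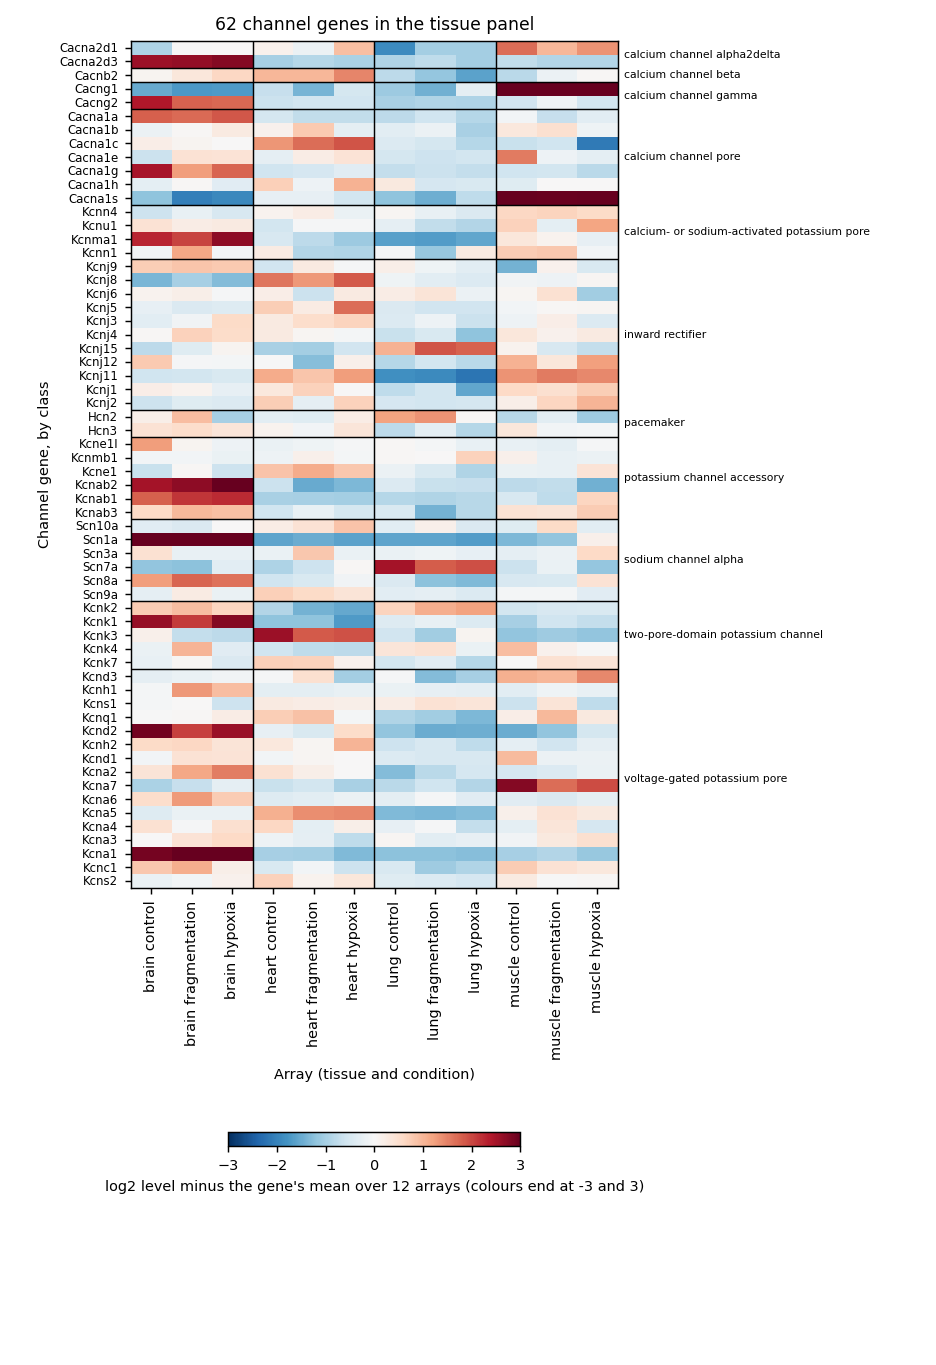
Each row is 1 of the 62 channel genes, grouped by class, and each column 1 of the 12 panel arrays; the colour is the log2 level minus the gene's mean over the 12 arrays, red for above and blue for below. Scn1a, Kcna1 and Kcnab2 are red on the 3 brain arrays, Cacna1s and Cacng1 on the 3 muscle arrays, Kcnk3 on the 3 heart arrays and Scn7a on the 3 lung arrays.

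Brain carried the most channel genes above the other tissues. Of the 40 tested, 19 were higher in brain than in the mean of the other 3 tissues and 8 lower (limma, Benjamini-Hochberg adjusted p at or below 0.05 over all 7453 probe sets tested), where 23.5% and 26.0% of all tested probe sets were called. Without the filter on low values 22 of all 62 were higher, against 16.1% of all probe sets. By class the higher genes were 2 of 3 tested sodium channel genes, 2 of 5 calcium pores, 4 of 9 voltage-gated potassium pores, all 3 potassium accessory genes, 2 of 5 two-pore-domain channels, 2 of 5 inward rectifiers, 1 of 3 calcium- or sodium-activated pores, 1 of 2 each of alpha2delta, gamma and pacemaker genes, and not the beta gene.

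Among the sodium channels Scn1a, the pore of Nav1.1, which sustains firing of fast inhibitory neurons, showed the greatest difference. Its level was 12.36, 11.87 and 12.62 on the brain control, fragmentation and hypoxia arrays, 6.73 to 6.84 in heart, 6.65 to 6.76 in lung, and 6.97, 7.14 and 8.48 in muscle (control, fragmentation, hypoxia). The brain arrays lay apart from the rest, and the muscle hypoxia array was the highest of the others. Scn1a was 5.28 ± 0.25 log2 (standard error of the fit) higher in brain, 38.8-fold, with a limma adjusted p of 8.47e-08. A second Scn1a probe set had a brain mean of 11.35 and means of 6.80 to 7.11 elsewhere. Scn8a, the Nav1.6 pore of the axon's initial segment, was at 9.78, 10.28 and 10.16 in brain and at 7.19 to 8.96 on the other arrays, with a difference of 2.07 ± 0.25. Its second probe set was flat, with tissue means of 6.76 to 6.94. Scn3a, Scn9a and Scn10a, pores of other neuronal sodium channels, were not tested, with tissue means below the filter.

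The high-voltage calcium channel genes divided by tissue. Cacna1a, the P/Q-type pore of presynaptic terminals, was at 9.63, 9.54 and 9.70 in brain and 6.97 to 7.75 elsewhere, a difference of 2.39 ± 0.14. Cacna1g, a low-voltage T-type pore, was at 10.15, 8.93 and 9.41 in brain and 6.86 to 7.33 elsewhere, a difference of 2.43 ± 0.21. Cacna1b, the N-type pore, was at 9.33 to 11.10 over the 12 arrays, and its brain values of 10.14, 10.34 and 10.59 lay inside the range of heart and muscle. Cacna1e, the R-type pore, and Cacna1h, a further T-type pore, were not tested, and the probe sets of Cacna1e had their highest means in different tissues. Of the auxiliary genes, Cacna2d3 was at 10.86, 10.92 and 11.04 in brain and 7.26 to 7.53 elsewhere (3.55 ± 0.12 higher, limma adjusted p = 1.53e-08). Cacng2, known as stargazin and a trafficking subunit of AMPA receptors, was at 10.94, 10.29 and 10.23 in brain and 7.54 to 8.40 elsewhere (2.62 ± 0.17 higher).

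Of the potassium channel genes 25 were tested, and 12 of these were higher in brain. Kcna1, the Kv1.1 pore of axons, was at 11.32, 11.99 and 12.12 in brain and 7.12 to 7.58 on the other 9 arrays. That difference, 4.48 ± 0.17 log2 or 22.3-fold, came second after Scn1a (limma adjusted p = 2.5e-08). Kcnab2 and Kcnab1, the beta subunits that bind Kv1 pores, had brain values of 11.70 to 12.24 and 9.94 to 10.39 and differed by 3.66 ± 0.21 and 2.75 ± 0.22. Second probe sets of both were also highest in brain, by less. That of Kcnab2 had means of 10.51 in brain and 8.17 to 8.82 elsewhere. That of Kcnab1, not tested, had 8.46 in brain and 8.13 in muscle. Kcnd2, the Kv4.2 pore of the dendritic A-type current, was at 11.14, 10.30 and 10.84 in brain and at or below 8.80 elsewhere, with a difference of 3.34 ± 0.22. Its second probe set, not tested, stood less apart, with means of 9.16 in brain and 7.08 to 8.05 elsewhere. Kcnma1, the large-conductance calcium-activated BK pore, was at 12.43, 12.17 and 12.83 in brain and 8.46 to 10.48 elsewhere (3.12 ± 0.18 higher). Kcnk1, the TWIK-1 two-pore-domain channel, was at 12.91, 12.39 and 13.05 in brain and 8.61 to 10.07 elsewhere (3.31 ± 0.18 higher). Below the other tissues in brain, with no overlap, were Cacng1 (a difference of -2.20 ± 0.18, at 7.52 to 7.73) and the Kir6.1 gene Kcnj8 (-1.63 ± 0.15, at 7.21 to 7.59). For Cacng1 the mean was 12.70 in muscle, but the brain arrays lay just below the lung fragmentation array, at 7.79.

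**Figure D2:**
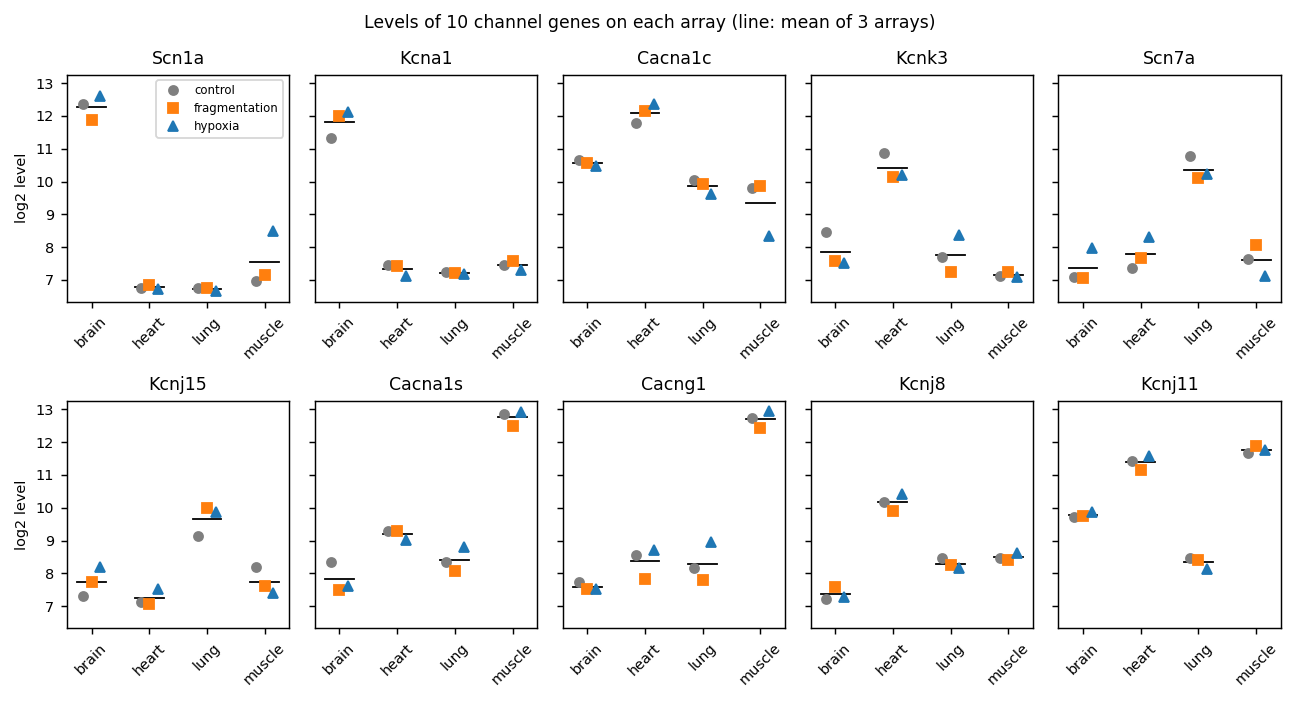
Log2 levels of 10 channel genes on the 12 panel arrays, by tissue, with the condition as the symbol and a line at the mean of the 3 arrays of a tissue. The brain arrays of Scn1a lie between 11.87 and 12.62 and the muscle arrays of Cacna1s between 12.50 and 12.92, each apart from the 9 other arrays, while Kcnj11 is high in both heart and muscle and lowest in lung.

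Heart differed from the other tissues in its calcium channel, in a background potassium channel and in Kir6.1. Of the 40 tested genes 10 were higher in heart and 16 lower, against 19.2% and 19.5% of all tested probe sets, and without the filter 15 of the 62 were higher, against 11.9%. Kcnk3, the acid-sensitive TASK-1 background channel, was at 10.87, 10.13 and 10.20 on the heart control, fragmentation and hypoxia arrays and 7.10 to 8.45 elsewhere. The heart arrays stood above all others, by 2.81 ± 0.24 or 7.01-fold (limma adjusted p = 1.75e-05). Cacna1c, the pore of the cardiac L-type calcium channel that triggers contraction, was at 11.78, 12.14 and 12.35 in heart and 8.35 to 10.65 elsewhere, 2.17 ± 0.26 higher. Cacnb2, the beta subunit of that channel, was at 11.76, 11.77 and 12.25, above the highest other value of 11.41 in brain, and differed by 1.53 ± 0.22. Kcna5, the Kv1.5 pore of the ultrarapid repolarizing current, was at 9.62, 9.94 and 9.97 in heart and 7.17 to 8.97 elsewhere, 1.73 ± 0.12 higher. Its second probe set did not show this, with tissue means at or below 7.47.

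Among the genes lower in heart with no overlap, 3 encode two-pore-domain channels. Kcnk1 was at 8.61 to 9.10 in heart (a difference of -1.83 ± 0.18) and Kcnk2, the mechanosensitive TREK-1 channel, at 8.21 to 8.86 (-1.71 ± 0.18). The mean of Kcnk1 was 12.79 in brain, but 9.95 in lung and 9.53 in muscle against 8.93 in heart. Kcnk4, known as TRAAK, differed by -0.96 ± 0.26, and the call was lost without the heart control array (adjusted p = 0.061) or the heart fragmentation array (adjusted p = 0.0962). Kcnab1 was at 7.12 to 7.16 in heart, a difference of -1.33 ± 0.22. Heart was just below lung, with Kcnab1 means of 7.14 and 7.28, while muscle was at 7.93 and brain at 10.20. On the second Kcnab1 probe set heart was not the lowest tissue, with means of 7.84 in heart and 7.47 in lung. Kcnh2, the hERG pore, and Kcnq1, the pore of the slow repolarizing current, were 0.62 ± 0.19 and 0.70 ± 0.20 above the mean of the other tissues in heart. Their ranges overlapped other tissues. Heart was not the highest tissue for Kcnh2, with means of 10.63 in brain and 10.57 in heart. For Kcnq1 heart was level with muscle, at 11.69 and 11.66.

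Skeletal muscle was marked by the genes of its own L-type calcium channel. Of the 40 tested genes 10 were higher in muscle and 15 lower, against 24.9% and 27.6% of all tested probe sets, and without the filter 14 of the 62 were higher, against 18.6%. Cacna1s, the voltage sensor of excitation-contraction coupling, was at 12.87, 12.50 and 12.92 in muscle, 9.01 to 9.30 in heart, 8.08 to 8.80 in lung and 8.35, 7.50 and 7.61 on the brain control, fragmentation and hypoxia arrays. Cacng1, its gamma subunit, was at 12.72, 12.44 and 12.95 in muscle and 7.52 to 8.94 elsewhere. No array of another tissue reached those levels, and the differences were 4.29 ± 0.19 log2 (19.6-fold, limma adjusted p = 3.74e-07) for Cacna1s and 4.62 ± 0.18 (24.5-fold, limma adjusted p = 2.37e-07) for Cacng1. Outside muscle, Cacna1s was highest among the brain arrays on the control array and Cacng1 highest among the lung arrays on the hypoxia array, at 8.94, the arrays on which the skeletal muscle markers were raised.

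The other genes higher in muscle with no overlap were Kcna7, Kcnj11, Cacna2d1, Kcnd3 and Kcnn4. Kcna7, the Kv1.7 pore, was at 10.99, 9.92 and 10.18 in muscle and 7.25 to 7.95 elsewhere, 2.84 ± 0.23 higher. Cacna2d1, the alpha2delta subunit that joins the L-type channel, was at 11.24, 10.57 and 10.91 in muscle against 9.39 to 10.47 in heart, with 1.78 ± 0.26 as the difference from the mean of the other tissues. Kcnd3, the Kv4.3 pore, was at 10.57, 10.52 and 10.96 and 1.56 ± 0.31 higher. Kcnn4, an intermediate-conductance calcium-activated channel, was at 10.15 to 10.24 and 0.82 ± 0.14 higher. The background channel Kcnk3 was lower in muscle than on any other array set, at 7.10 to 7.23, but these values lay just below the lowest lung array, at 7.24.

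The 2 pores of ATP-sensitive potassium channels had different tissue patterns. Kcnj11, the Kir6.2 pore, was at 11.42, 11.15 and 11.58 in heart, 11.66, 11.88 and 11.75 in muscle, 9.72 to 9.86 in brain and 8.13 to 8.48 in lung. The muscle arrays lay just above the heart arrays, and the difference of heart from muscle, -0.38 ± 0.18 (limma adjusted p = 0.141), did not pass the threshold. Against the mean of the other tissues it was higher in muscle by 1.93 ± 0.14 and in heart by 1.42 ± 0.14, and lower in lung, by -2.64 ± 0.14 (limma adjusted p = 3.79e-07). Kcnj8, the Kir6.1 pore, was at 10.18, 9.89 and 10.42 in heart, 8.42 to 8.64 in muscle, 8.18 to 8.46 in lung and 7.21 to 7.59 in brain. The heart arrays lay above all others, 2.11 ± 0.15 higher (limma adjusted p = 6.29e-06). Of the sulphonylurea receptors that complete these channels, Abcc9 (SUR2) was higher in heart by 2.44 ± 0.14 and in muscle by 1.87 ± 0.14, and lower in brain (-2.07 ± 0.14) and lung (-2.23 ± 0.14). Abcc8 (SUR1) was higher in heart by 0.93 and in brain by 0.54.

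Heart and muscle, both striated, were set against each other directly. Of the 40 tested genes 7 were higher in heart and 10 lower, against 13.9% and 11.0% of all tested probe sets. Kcnk3 (3.25 ± 0.30) and Cacna1c (2.75 ± 0.32) were the most heart-weighted, then Kcnj8 (1.65 ± 0.19), Cacnb2 (1.47 ± 0.27), Kcnd2 (1.02 ± 0.27), Kcna5 (1.01 ± 0.15) and Kcnh2 (0.83 ± 0.23). Cacng1 (-4.33 ± 0.22), Cacna1s (-3.57 ± 0.23) and Kcna7 (-2.87 ± 0.28) were the most muscle-weighted, then Kcnd3 (-1.37 ± 0.38) and Kcnk4 (-1.07 ± 0.31). On the probe sets used the A-type pores differed in direction, with Kcnd2 at 8.02, 7.79 and 8.80 in heart against 6.76, 7.06 and 7.74 in muscle, and Kcnd3 at 9.47, 9.98 and 8.48 against 10.57, 10.52 and 10.96. The second Kcnd2 probe set did not show this, with a mean of 8.05 in muscle and slightly less in heart. The 17 calls fell to 11 without the heart hypoxia, the muscle control or the muscle hypoxia array, and to 12 without the heart control array. Kcnd2, Kcnh2, Kcnd3 and Kcnk4 were each lost in 1 or more of these.

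**Figure D3:**
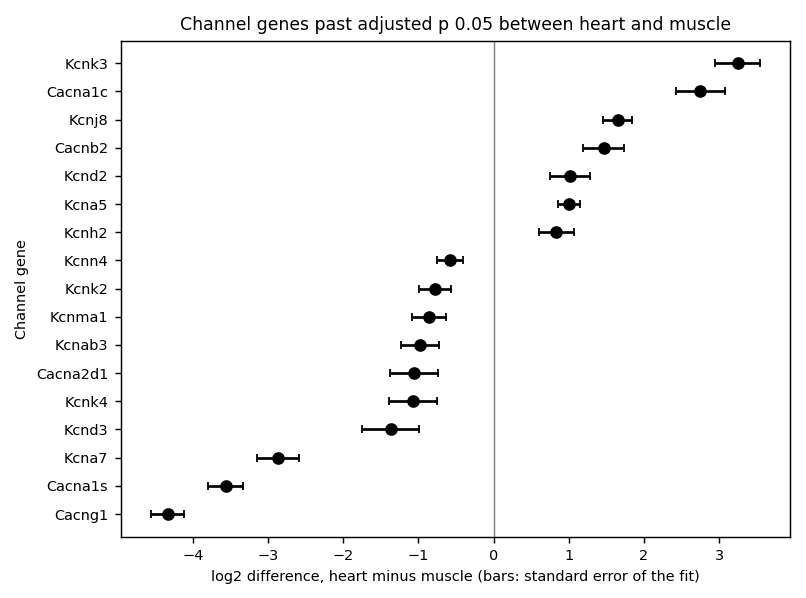
The log2 difference between heart and muscle, with its standard error, for the 17 of 40 tested channel genes past a limma adjusted p of 0.05. Cacng1, Cacna1s and Kcna7 stand at the muscle end, from -4.33 to -2.87, and Kcnk3 and Cacna1c at the heart end, at 3.25 and 2.75.

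In lung most tested channel genes were below the mean of the other tissues. Of the 40 tested genes 31 were lower in lung and 4 higher, against 33.8% and 28.1% of all tested probe sets, and without the filter 4 of the 62 were higher, against 20.9%. Scn7a, the atypical sodium channel Nax that responds to extracellular sodium, was at 10.77, 10.10 and 10.22 in lung and 7.06 to 8.31 elsewhere, 2.78 ± 0.29 or 6.85-fold higher (limma adjusted p = 2.11e-05). Kcnj15, the inward rectifier Kir4.2, was at 9.14, 9.99 and 9.87 in lung and 7.07 to 8.20 elsewhere, 2.09 ± 0.24 or 4.26-fold higher (limma adjusted p = 4.8e-05). A second Kcnj15 probe set had a mean of 9.37 in lung and 6.80 to 6.97 in the other tissues. Kcnk2 was at 10.43 to 10.96 in lung and overlapped the brain values of 10.40 to 10.68, with both above heart and muscle.

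The genes lower in lung with no overlap included Kcnj11, Kcnma1 (-2.16 ± 0.18, at 8.46 to 8.58), Kcna5 (-1.77 ± 0.12, at 7.17 to 7.25), Cacna2d1 (-1.74 ± 0.26) and Kcnq1 (-1.46 ± 0.20). For Kcnq1 the second probe set gave the opposite direction in lung, 0.87 higher (limma adjusted p = 0.00346). Its means were 9.10 in lung, 9.54 in heart, 7.99 in muscle and 7.15 in brain. Heart had the highest mean on both, but on the probe set used it was level with muscle, at 11.69 against 11.66 with overlap. The pacemaker genes, which carry the current that drives rhythmic firing, were measured for Hcn2 and Hcn3. Hcn3 was at 9.63 to 11.01 over the panel, higher in brain by 0.59 ± 0.17 and lower in lung (-0.85 ± 0.17). Hcn2 on the probe set used was highest in lung, at 12.06, 12.19 and 10.89, while its second probe set had means of 11.20 in brain and 7.09 to 8.12 in the other tissues. The 2 probe sets contradict each other, and no tissue is named for Hcn2.

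Genes that work beside the channels were counted in the same way. Of 38 genes listed as channel partners 23 were measured and 16 tested, and 10 were higher and 3 lower in brain, 6 and 4 in heart, 1 and 11 in lung, and 3 and 4 in muscle. Of all tested probe sets 23.5% and 26.0% were called in brain, 19.2% and 19.5% in heart, 28.1% and 33.8% in lung, and 24.9% and 27.6% in muscle, so the counts lower in brain, lower in heart, higher in lung and either way in muscle lie near or below that background. In brain these included Cntn1, an axonal adhesion molecule (4.85 ± 0.16), Stx1a, a release protein that binds calcium channels (2.94 ± 0.24), Dlg4, the postsynaptic scaffold PSD-95 (2.75 ± 0.29), and Dpp6, an accessory subunit of Kv4 channels (2.58 ± 0.39). Rrad, a small GTPase that inhibits L-type channels, was 3.99 ± 0.28 higher in heart, and Cav3, muscle caveolin, 1.41 ± 0.13 higher in muscle and 1.26 ± 0.13 in heart. Of 52 other ion channel and sodium pump genes 28 were measured and 19 tested, with 8 higher and 3 lower in brain, 3 and 5 in heart, 6 and 8 in lung, and 5 and 9 in muscle, against the same background shares. They included Clcn1, the muscle chloride channel (2.85 ± 0.20 higher in muscle), P2rx4, an ATP-gated channel (2.08 ± 0.17 higher in lung), Fxyd5, a sodium pump regulator (2.27 ± 0.34 higher in lung), and Atp1b2, a sodium pump beta subunit (2.64 ± 0.22 higher in brain).

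No channel gene passed the test for either exposure across the 4 tissues. Against control, 0 of the 40 tested genes passed the adjusted threshold for fragmentation and 0 for hypoxia, and 0 had an unadjusted limma p under 0.05 in either; over all tested probe sets 0.00% and 0.00% passed, with 335 and 374 at an unadjusted p under 0.05. The smallest adjusted p of a channel gene was 0.967 for fragmentation and 0.906 for hypoxia. For fragmentation Kcnj9, a Kir3 subunit, differed by 0.53 ± 0.26, Cacng1 by -0.39 ± 0.19 and Kcnk3 by -0.49 ± 0.26. For hypoxia Cacna2d1 differed by 0.57 ± 0.27, Kcna2, the Kv1.2 pore, by 0.45 ± 0.22 and Kcnk4 by -0.46 ± 0.27. Partner genes gave 0 calls as well. These fits test only what the tissues share, with 4 arrays a condition.

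Within a tissue 1 exposed array stands against 1 control array, with no test. Of the 40 tested genes, those 2-fold or more apart were 3 in brain with fragmentation (3.88% of all tested probe sets), 2 in brain with hypoxia (6.09%), 1 in heart with fragmentation (4.04%), 1 in heart with hypoxia (5.82%), 2 in lung with fragmentation (1.62%), 1 in lung with hypoxia (2.80%), 2 in muscle with fragmentation (7.82%) and 3 in muscle with hypoxia (6.61%). Kcnn1, a small-conductance calcium-activated channel, was among them in 3 tissues: it was at 9.15 on the brain control array and 10.42 with fragmentation, at 9.50, 8.37 and 8.35 on the heart control, fragmentation and hypoxia arrays, and at 9.23 and 8.12 on the lung control and fragmentation arrays. The direction in brain was opposite to that in heart and lung, and both heart comparisons share 1 control array. In brain Cacna1g differed by -1.22 and Kcnk4 by 1.22 with fragmentation, and Kcna2 by 1.14 with hypoxia. The brain arrays also differed in signs of other tissue, given above, whose part was not tested. Kcnd3 differed by -1.25 in lung with fragmentation.

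In muscle with hypoxia a heart-weighted gene was low and a pair of brain-weighted genes were high. Cacna1c was at 9.79, 9.87 and 8.35 on muscle arrays (control, fragmentation, hypoxia), and Scn1a at 6.97, 7.14 and 8.48. Kcnab1 was at 7.65, 7.37 and 8.78 in the same order. Scn1a and Kcnab1 were higher on the hypoxia array than on the other muscle arrays, and so was the mean of the 7 neuron markers, at 8.06, 8.58 and 8.86. Single markers differed: Snap25 (6.99, 7.10 and 8.42), Syt1, Gad1 and Nefl were highest on the hypoxia array, Nefm was at 7.09, 7.02 and 7.10, Stmn2 was highest with fragmentation, and Eno2 was lowest with hypoxia, at 9.20, 9.75 and 8.91. The part of nerve tissue in these values was not tested. With fragmentation in muscle, Kcnj9 was at 9.31 against 7.76 on the control array and Kcna7 at 9.92 against 10.99, while the adipocyte marker mean was 11.09 against 8.89. Hcn2 differed by -1.17 with hypoxia in both brain and lung on the probe set used, and its shared change with hypoxia turned from -0.51 to 0.27 on the other probe set.

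**Figure D4:**
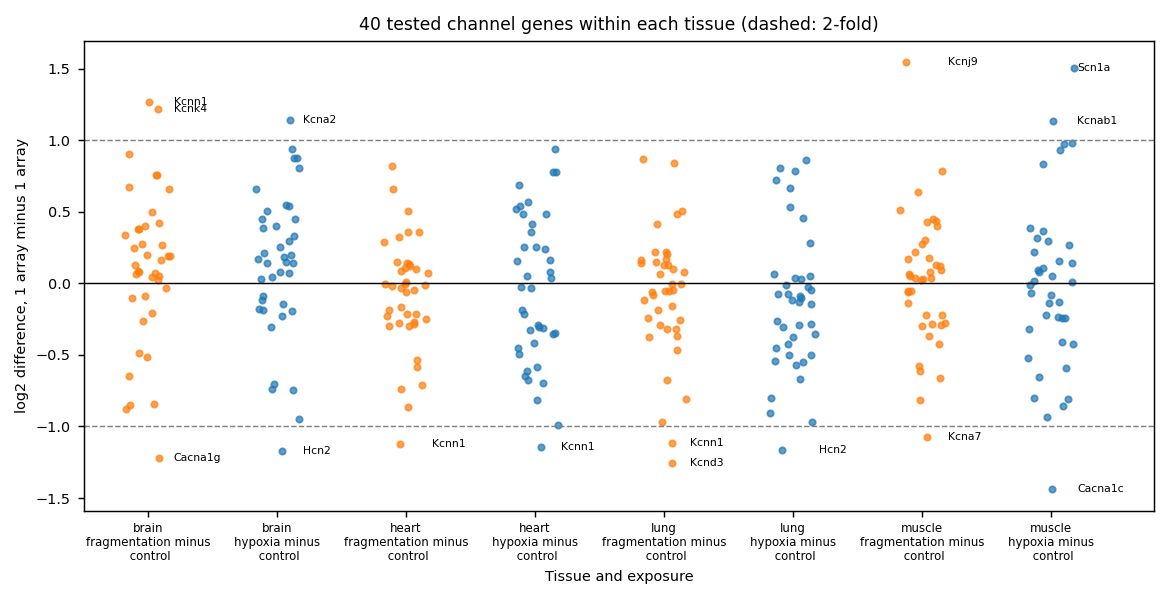
Log2 differences of the 40 tested channel genes, 1 exposed array minus 1 control array of the same tissue, with fragmentation in orange and hypoxia in blue; points past the dashed 2-fold lines are named. Most points lie within 2-fold, and the named ones are 1 to 3 per column.

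In subcutaneous adipose tissue many channel genes were not measurable. Of the 62, 19 were at the floor on all 8 arrays (30.6%, against 19.9% of all probe sets), 16 were above it on all 8 (25.8%, against 50.5%) and 27 on some. The 10 with the highest mean signal, which depends on the probe as well as the transcript, were Hcn2, Kcnj6, Kcnn4, Cacna1s, Kcnq1, Hcn3, Kcnk1, Cacng1, Kcnh2 and Kcnj8. Kcnj6, a Kir3 subunit, was at 9.04 to 10.28 on the 8 arrays, but its second probe set had a mean of 7.24 against 9.87. Second probe sets were also low for Hcn2, with a mean at the floor of 6.61 against 11.37, and for Kcnq1, with 6.73 against 9.48. Within its arrays the Kcnj6 probe set used ranked at a median percentile of 74.2 in adipose tissue and 29.1 to 32.2 in the 4 panel tissues, where the arrays were scaled separately. Kcnn4 was at 9.30 to 10.66, and Kcnj8 at 7.88 to 9.49.

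No channel gene differed between the Glucose and Con arrays past the threshold. Of the 24 tested 0 passed, against 7.58% of all tested probe sets. An unadjusted limma p under 0.05 was reached by 5 of the 24, against 1789 of all 7453 tested probe sets (24.0%), so the 5 are not above that background. Kcnj15 was at the floor on all 4 Con arrays and at 9.23, 6.61, 9.06 and 8.25 on the Glucose arrays (non-hypoxia 1 and 2, then hypoxia 1 and 2), so 3 of 4 Glucose arrays were above. It differed by 1.68 ± 0.54 (limma adjusted p = 0.116). Without Glucose non-hypoxia 2, the only Glucose array at the floor, the difference was 2.33. Leaving out that array had to raise it, so this value adds no support. Kcnh2 was at 6.61, 9.25, 6.61 and 8.31 on the Con arrays in that order and 9.62, 10.37, 10.54 and 8.35 on the Glucose arrays, a difference of 2.02 ± 0.74 (adjusted p = 0.152). The groups overlapped, with 2 Con arrays at the floor. Kcna5 was at 8.95, 7.76, 8.12 and 7.68 on Con and 9.47, 8.10, 9.55 and 9.44 on Glucose arrays (1.01 ± 0.40 higher, limma adjusted p = 0.177). The second Kcna5 probe set had an adipose mean of 6.61, at or near the floor.

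The lower values on Glucose arrays were those of Kcnab2, Kcna7 and Kcnd3. Kcnab2 was at 7.51, 8.53, 8.24 and 8.45 on Con and 7.35, 7.74, 6.61 and 7.46 on Glucose arrays, a difference of -0.89 ± 0.33 (limma adjusted p = 0.156). The second Kcnab2 probe set had an adipose mean of 6.83, near the floor. The mean of the 10 measured lymphocyte markers was 9.38 to 9.86 on Con arrays and at or below 7.40 on Glucose arrays, without overlap, and its part in the Kcnab2 values was not tested. Kcna3, the Kv1.3 pore of T cells, named for its role after its values were seen, was at 6.96, 7.33, 7.70 and 7.41 on Con and 7.77, 7.61, 6.63 and 7.05 on Glucose arrays, and the groups overlapped. Kcna7 was at 7.79 to 8.27 on Con arrays and at the floor on 3 Glucose arrays, with 8.75 on Glucose hypoxia 2. Its difference of -0.86 ± 0.44 (limma adjusted p = 0.293) became -1.39 without that array. Leaving out the only Glucose array above the floor had to enlarge it, so this value adds no support.

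Cacna1s and Cacng1 varied widely over the adipose arrays, as did skeletal muscle markers. In the order Con non-hypoxia 1 and 2, Con hypoxia 1 and 2, Glucose non-hypoxia 1 and 2, Glucose hypoxia 1 and 2, Cacna1s was at 10.04, 11.93, 8.71, 9.19, 6.61, 10.04, 9.54 and 11.22. Cacng1 was at 8.81, 10.59, 7.35, 7.10, 6.61, 9.75, 9.43 and 10.60, and the mean of the 10 skeletal muscle markers at 12.91, 14.14, 12.36, 12.14, 9.17, 13.45, 12.13 and 13.38. Both genes were lowest on the array where the markers were lowest, Cacng1 at the floor and Cacna1s just above it, and Cacna1s was highest on the array where they were highest, while the order of the arrays between these ends was not the same. In the difference between the hypoxia effects of Glucose and Con these were the 2 genes with an unadjusted p under 0.05, by 4.30 ± 1.45 for Cacng1 and 4.09 ± 1.62 for Cacna1s (limma adjusted p = 0.999 for both). Of the 24 tested genes 0 passed, against 0.00% of all, with 246 probe sets at an unadjusted p under 0.05. The part of muscle tissue in these values was not tested.

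Kcnk3 varied beside another marker list, and was singled out after its values were seen. It was not tested in adipose tissue, and was at 9.75, 7.34, 8.36 and 6.61 on the Con arrays in the same order and at the floor on all 4 Glucose arrays. The mean of the 5 brown adipocyte markers was 12.43, 9.52, 12.33 and 8.23 on those Con arrays and 7.33 to 8.37 on Glucose arrays, and Ucp1, the uncoupling protein of brown fat, was at 13.18 and 12.52 on the number 1 Con arrays and 6.61 to 8.72 on the other 6. The level of Kcnk3 was thus highest on the arrays with the most brown adipocyte signal, and its part was not tested.

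**Figure D5:**
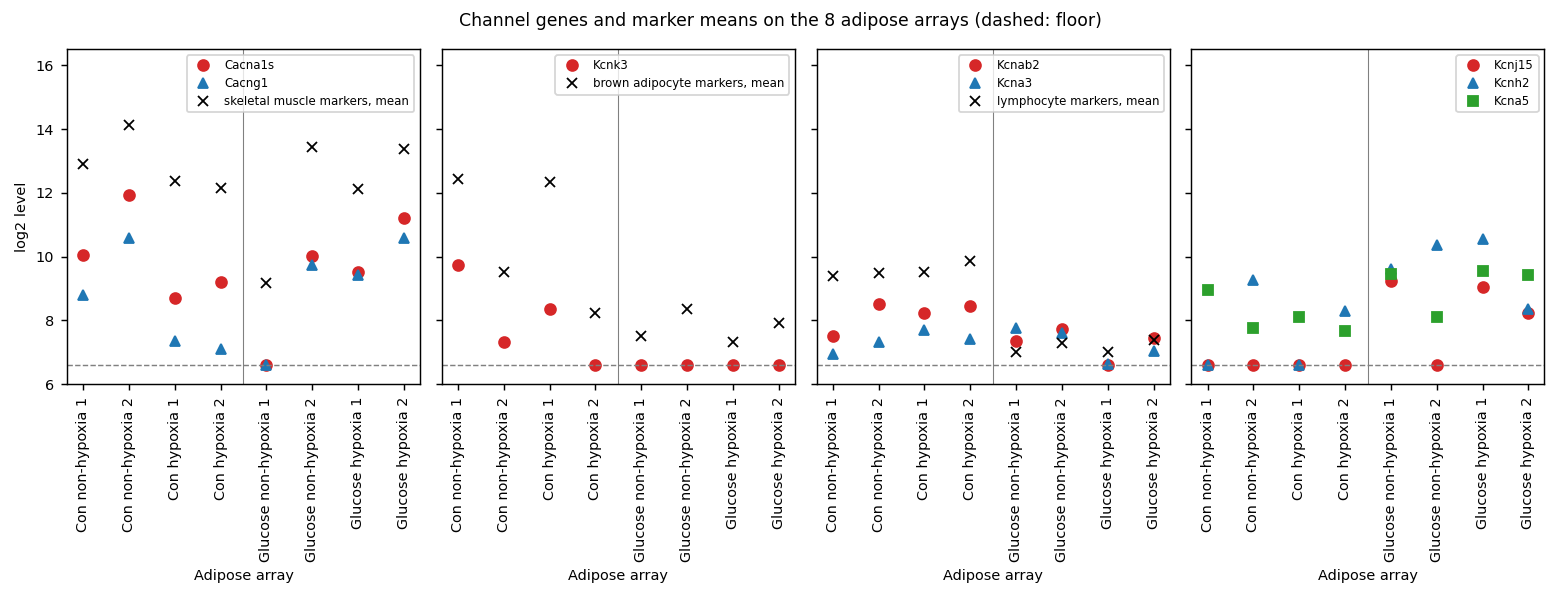
Log2 levels of channel genes (coloured symbols) and means of marker lists (crosses) on the 8 adipose arrays, Con on the left and Glucose on the right of each panel, with the floor of 6.61 dashed. Cacna1s, Cacng1 and the muscle markers are all lowest on Glucose non-hypoxia 1, Kcnk3 is above the floor on 3 Con arrays, and Kcnj15 is above it on 3 Glucose arrays.

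No channel gene passed the test for intermittent hypoxia in adipose tissue either. Of the 24 tested 0 passed, against 0.00% of all tested probe sets, and 0 had an unadjusted limma p under 0.05, where 110 of all probe sets had. Kcne1, an accessory subunit of Kcnq1, differed by 0.83 ± 0.39 between hypoxia and non-hypoxia (unadjusted p = 0.0657 in the limma fit), with values of 8.45, 8.29, 8.92 and 8.52 on hypoxia arrays and 8.17, 7.77, 8.30 and 6.61 on the others. Cacna1c differed by 0.59 ± 0.33 and Kcnk1 by 0.62 ± 0.41, each with overlap. With 2 arrays a group, a small change in these genes was not detectable.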

How the data were processed

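The deposited files hold a linear intensity for each probe set, and the authors' method of summarising probes was not given in the sources used here. Symbols come from the platform annotation: 10833 probe sets have 1 symbol, 396 several and 1193 none. All 62 genes have a RefSeq entry.

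The 97.7 offset is the percentile 20 of the positive values of all arrays. Probe sets whose highest tissue mean (panel) or mean (adipose) lay above the percentile 40 were fitted, 7453 in each set. Tissue and condition were terms of the panel fit, and the adipose fit had 4 group means (limma 3.58.1, R 4.3.3, lmFit and eBayes, two-sided), with 6 and 4 residual degrees of freedom. Both were run on simulated normal data without a floor, which does not test the adipose fit where values are at the floor. No array pair was a duplicate. The rule names called genes without overlap, the smallest p-values where few were called, the within-tissue extremes, the sodium, high-voltage calcium, pacemaker and Kir6 genes, and the highest levels. Genes and lists were chosen with earlier results of these data known.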

Additional observations from a re-analysis of the deposited data

Results flagged for a closer look

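On 3 occasions 1 of 4 adipose arrays stood apart from the others of its side, by the gap to its nearest neighbour as a share of the whole range (Dixon's test). About 1 in 20 such groups would be flagged by chance. Kcna5 on the Glucose arrays had a share of 0.924, with 8.10 on non-hypoxia 2 against 9.44 to 9.55. Kcna7 on the Glucose arrays had a share of 1, with 8.75 on hypoxia 2 and the other arrays at the floor of 6.61, so this share is set by the floor and the chance rate does not apply to it. Cacna1c on the hypoxia arrays had a share of 0.888, with 7.77 on Glucose hypoxia 1 against 8.75 to 8.87.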

How the results depend on the processing

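Of 891 recomputed values for the 48 named tissue differences, 875 kept their direction and their side of the threshold, 15 lost the threshold and 1 reversed: Kcnq1 in lung, at 0.87 on the lowest probe set of the gene. Hcn2 reversed likewise for hypoxia in the panel, at 0.27. The second probe sets of Kcna5, Kcnd2 and Kcnab1 were below the filter, gave no recomputed value and are outside these counts. By their means, those of Kcna5 and Kcnd2 reversed the named difference of heart from muscle, with heart slightly below muscle. Those of Kcnd2 and Kcnab1 kept brain as the highest tissue. With the filter at percentile 60 fewer genes were tested, and the calls fell from 27 to 16 in brain and from 26 to 17 in heart. Leaving out each array gave 23 to 28 calls in brain, 19 to 29 in heart, 30 to 36 in lung, 20 to 28 in muscle and 11 to 18 for heart against muscle. Exposures in the panel stayed at 0 calls under every setting run. In adipose tissue each contrast had 1 call without the filter, Kcnj9, at the floor on 6 arrays and at 7.86 and 7.85 on the Glucose non-hypoxia arrays. Leaving out each adipose array gave 0 to 1 calls for Glucose against Con. Array numbers did not pair between Con and Glucose (correlations of deviations from -0.14 to -0.05). Within Con (0.18) and within Glucose (0.41) they went together in part. In Glucose, arrays of the same number correlated at 0.959 and 0.953, against 0.920 and 0.944 for the 2 arrays of a group. In Con the values were 0.955 and 0.934 against 0.930 and 0.931. The array titles also carry a code, s2 or s4, that is not defined. In Glucose both arrays of number 1 had s4 and both of number 2 had s2, so number and code cannot be told apart there. In Con the code did not follow the number. With the number as 1 replicate block over all arrays the calls were 0 in all 3 adipose contrasts. A block within Con or Glucose was not fitted. Arrays number 1 per tissue and condition or 2 per group, which limits precision.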
